A study of Rattus norvegicus with 12 samples.

Results

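Retinal maturation from P7 to P14 was followed in 4 of the 12 small RNA libraries of the series, the retina pools of postnatal days 7 and 14 (P7 and P14) from the oxygen-induced retinopathy arm (OIR) and the room air arm (CTL). The members are every miRNA listed in these 4 libraries. There were 691 of them in at least 1 library and 560 in all 4, of the 750 listed in the whole series. All pups were albino Sprague Dawley rats. OIR pups were housed with their mothers under daily alternation of high and low oxygen, beginning a few hours after birth and lasting until P14, so that both the P14 OIR and the P7 OIR pups were in cycling oxygen. CTL pups of the same ages stayed in room air. The remaining libraries are the P17 retina pools of both arms, which enter only the test across arms and the description of later levels, and the choroid pools, which are not used here. Each library is 1 pool of 5 retinas, so no pool has a replicate and the intervals below cover counting error only. In pooled whole tissue, fewer cells of a type and less RNA per cell cannot be told apart.

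A miRNA is a short RNA, cut from a hairpin precursor, that guides the silencing of messenger RNAs. Its target choice rests mainly on the seed, bases 2 to 8 from its 5′ end, so miRNAs with the same seed share many targets. The rat retina is unfinished at birth. During the first postnatal weeks the last progenitors stop dividing, many rods are born, photoreceptors grow their outer segments, synapses form and the eyes open toward the end of the second week. The miR-17, miR-18, miR-19 and miR-92 miRNAs are known from dividing cells, miR-29 and miR-129 from maturing neurons, and the cluster of miR-182, miR-183 and miR-96 from photoreceptors and other sensory cells.

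The level of a miRNA was its count of UMIs (random tags that let copies of a captured molecule be counted as 1) per 1000000 miRNA UMIs of the library, written RPM. A miRNA is called alike in both arms when its P14 to P7 ratio was at least 1.5-fold in the same direction in OIR and in CTL, both exact conditional (Clopper-Pearson) 95% intervals excluded 1, and it reached 100 RPM in 1 or more of the 4 pools. Of the 219 miRNAs at that level, 13 were higher at P14 in both arms (5.94% of those tested) and 30 were lower in both arms (13.7%). With the photoreceptor cluster left out of the denominator, 17 were higher and 21 lower. Mature sequences from RefSeq (rat build GRCr8, matched by name) were found for 199 of the 219 and for 42 of the 43 called alike. Bases 2 to 8 are in capitals in every sequence below.

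The first set is shown because it holds the miR-29 seed, of which all 3 members were higher at P14 in both arms, with 2 entries that read the opposite strand of it, and other higher miRNAs, of which miR-211-5p and miR-7b stand beside the near copy with the same seed.
miR-29a-3p: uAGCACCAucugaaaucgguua
miR-29b-3p: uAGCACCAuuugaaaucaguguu
miR-29c-3p: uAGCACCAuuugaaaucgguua
miR-3556b: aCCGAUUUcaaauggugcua
miR-3587: aACACUGAuuucaaauggugc
miR-211-5p: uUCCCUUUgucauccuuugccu
miR-204-5p: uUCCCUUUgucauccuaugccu
miR-129-5p: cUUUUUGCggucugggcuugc
miR-182: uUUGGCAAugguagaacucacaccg
miR-7b: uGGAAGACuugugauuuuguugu
miR-7a-5p: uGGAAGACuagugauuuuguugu

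The next set is shown because it holds members of the miR-17 clusters that were lower at P14 in both arms, with miR-15b-5p, its seed relative miR-16-5p, and let-7i-5p.
miR-17-5p: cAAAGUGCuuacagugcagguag
miR-20a-5p: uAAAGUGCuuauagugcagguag
miR-93-5p: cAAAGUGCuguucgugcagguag
miR-106b-5p: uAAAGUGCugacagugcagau
miR-18a-5p: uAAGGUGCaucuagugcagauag
miR-19a-3p: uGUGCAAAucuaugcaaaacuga
miR-19b-3p: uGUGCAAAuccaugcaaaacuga
miR-25-3p: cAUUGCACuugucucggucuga
miR-92a-3p: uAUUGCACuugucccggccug
miR-15b-5p: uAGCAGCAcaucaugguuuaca
miR-16-5p: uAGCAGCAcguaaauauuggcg
let-7i-5p: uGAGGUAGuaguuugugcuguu

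Several of these differ by little. miR-29a-3p and miR-29c-3p differ at 1 of 22 positions, miR-211-5p and miR-204-5p at 1 of 22, miR-19a-3p and miR-19b-3p at 1 of 23, miR-7b and miR-7a-5p at 1 of 23, and miR-17-5p and miR-20a-5p at 2 of 23. How the authors' alignment divided reads among such near copies is not given in the sources used here, so single members of these families are uncertain and their sums are given as well. The whole of miR-3556b (20 bases) is the reverse complement of a stretch of miR-29c-3p, and the whole of miR-3587 (21 bases) is the reverse complement of a stretch of miR-29b-3p. In GRCr8 the mature miR-3556b lies at chr13:109099412-109099431 on the minus strand, opposite the Mir29c hairpin at chr13:109099359-109099446 on the plus strand. The Mir3587 hairpin at chr4:60618307-60618369 (plus strand) likewise overlaps the Mir29b1 hairpin at chr4:60618334-60618414 (minus strand). These are positions in the RefSeq build, which is not the build the authors aligned to.

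The libraries held 6994293 (P14 OIR), 10533753 (P7 OIR), 12199511 (P14 CTL) and 11263013 (P7 CTL) miRNA UMIs, with 1.11 to 1.13 reads per UMI and 574 to 667 miRNAs listed in each. miR-182 and miR-9a-5p, a miRNA of neurons and their progenitors, held the first 2 ranks in all 4 pools. The authors name both among the most abundant miRNAs of the choroid at P7 as well, so these ranks do not tell retina from choroid. The P7 CTL pool stood apart in miRNAs known from other tissues. The mesenchymal and mural list (10 entries) summed to 2819 RPM (OIR) and 4235 RPM (CTL) at P14, against 2994 RPM (OIR) and 33667 RPM (CTL) at P7. The striated muscle list (8 entries) summed to 621 RPM (OIR) and 477 RPM (CTL) at P14, against 591 RPM (OIR) and 4155 RPM (CTL) at P7. The endothelial list (8 entries) summed to 12414 RPM (OIR) and 13292 RPM (CTL) at P14, against 6339.8 RPM (OIR) and 37461 RPM (CTL) at P7. Every CTL ratio therefore has this pool as its denominator, and each result below gives both arms, of which the OIR ratio does not use it. The part of these miRNAs in other results was not tested. In the OIR arm the P14 pups had also spent longer in cycling oxygen than the P7 pups. Age and length of exposure therefore cannot be told apart in the OIR ratio.

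**Figure D1:**
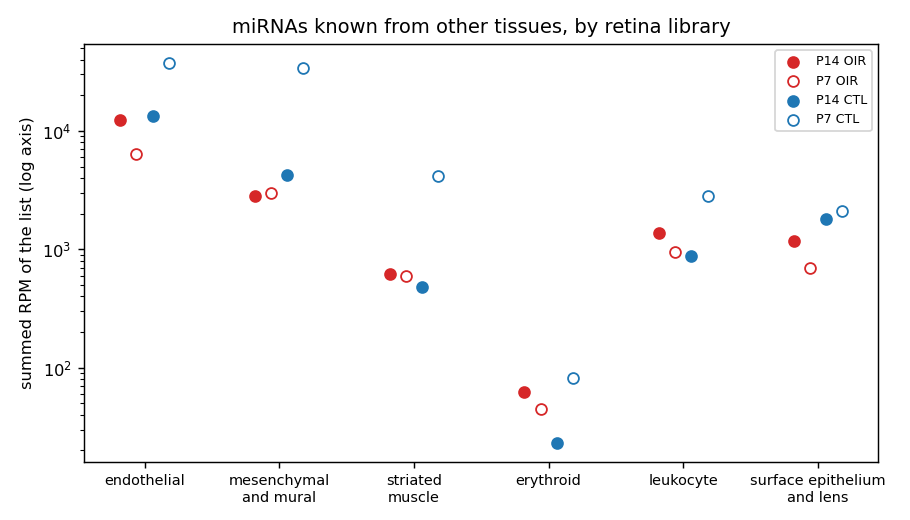
Summed RPM (log axis) of the 6 miRNA lists of other tissues in each retina library, filled points P14 and open points P7, red OIR and blue CTL. The P7 CTL pool is the highest of the 4 in all 6 lists, with 33667 RPM of the mesenchymal and mural list against 2994 RPM in the P7 OIR pool.

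The 2 arms were first compared over all 219 miRNAs. In OIR, 32 were 1.5-fold higher at P14 (14.6%) and 51 were 1.5-fold lower (23.3%). In CTL, 21 were higher (9.59%) and 74 were lower (33.8%). The ratios lay on the same side of 1 in both arms for 146 of 219, of which 44 were above 1 and 102 below. Another 51 were below 1 in CTL and above it in OIR. The median log2 ratio of P14 over P7 was -0.07 in OIR and -0.27 in CTL. Across miRNAs the log2 ratios of the 2 arms had a Pearson correlation of 0.31 and a Spearman correlation of 0.35, and a Pearson correlation of 0.56 over the 195 miRNAs outside the 6 lists of other tissues. These are descriptions across miRNAs, which share the 4 libraries and are not independent replicates. At the threshold, the last miRNA counted as higher was miR-1839-5p (1.502 in OIR and 1.97 in CTL), and miR-194-5p, short of it in CTL (1.41), was the nearest not counted. Among the lower ones miR-186-5p (0.467 in OIR and 0.655 in CTL) was just inside and miR-16-3p (0.673 in OIR and 0.637 in CTL) just outside.

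**Figure D2:**
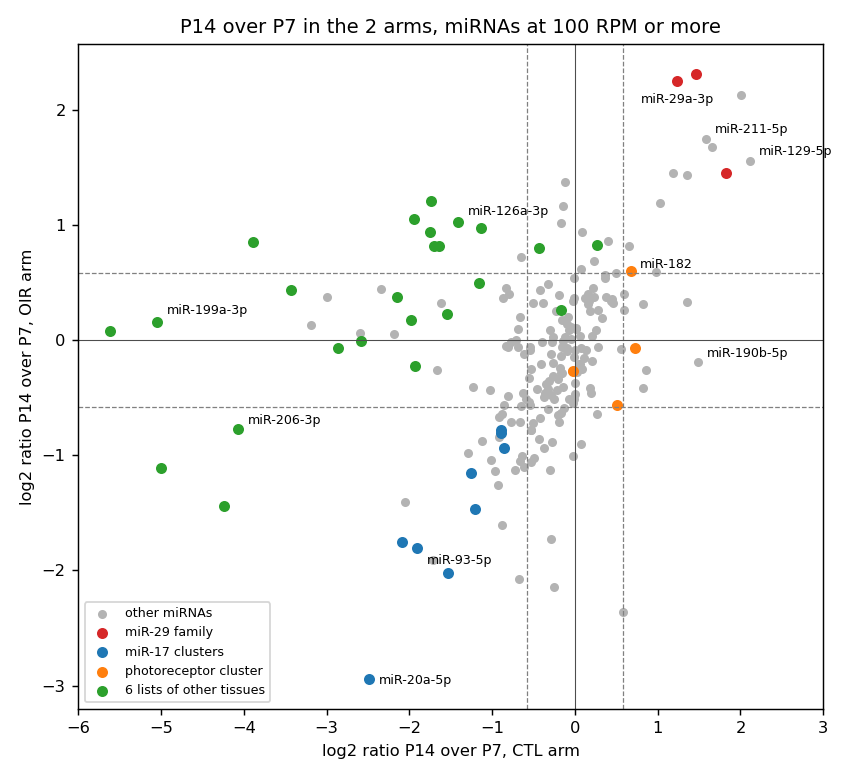
Each point is 1 of the 219 miRNAs, with its log2 ratio of P14 over P7 in CTL (x axis) and in OIR (y axis). Dashed lines mark 1.5-fold. The miR-29 family lies in the upper right and most of the miR-17 clusters in the lower left, while the miRNAs of other tissues spread to the left, down to -5.62 in CTL with 0.08 in OIR for miR-199a-5p.

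Whether the change with age was larger than its disagreement between the arms was tested with edgeR. This was a quasi-likelihood test on UMI counts of the 6 retina libraries, with age and arm as terms. TMM scaling and Benjamini-Hochberg adjustment were used. The arms stand in for repeats here, and the arm term removes a difference between arms that is the same at every age. Its p-values therefore weigh the age change against its disagreement between arms, not against the spread between animals. With 2 residual degrees of freedom, 14 of 641 miRNAs passed an adjusted p of 0.05 as higher at P14 (2.18%) and 9 as lower (1.4%), and all 23 moved in the same direction in both arms. Of these, 9 of the 14 higher and 5 of the 9 lower were among the miRNAs called alike, and the other 9 were below 100 RPM in all 4 libraries. The design favours both the shared direction and this overlap. The test uses the same libraries as the ratios and takes disagreement of the age change between arms as error. Neither is therefore separate support for the calls. Adjusted p of the calls ran from 0.0407 to 0.0457, close to the threshold, while 154 miRNAs had an unadjusted p below 0.05. The calls rest on single libraries. Without the P14 OIR, P14 CTL, P17 OIR or P17 CTL pool in turn, edgeR called 0 in either direction (83, 111, 95 and 94 with an unadjusted p below 0.05). Without the P7 OIR pool it called 58 higher and 61 lower, and without the P7 CTL pool 34 higher and 43 lower. DESeq2 on all 6 libraries called 28 higher and 26 lower. "Rose" and "fell" are used below only for miRNAs that passed the edgeR test.

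The miR-29 family, known to repress collagens and DNA methyltransferases and to accumulate as mouse neurons mature, was higher at P14 in both arms in all 3 members. miR-29c-3p rose, with 13685 RPM (OIR) and 12062 RPM (CTL) at P14, against 5019 RPM (OIR) and 3400.1 RPM (CTL) at P7. Its P14 to P7 ratio was 2.73 in OIR (2.70 to 2.76) and 3.55 in CTL (3.51 to 3.59), and its edgeR log2 change was 1.70 (SE 0.17), adjusted p = 0.0407. Both P14 pools lay above both P7 pools, and the difference between ages exceeded that between arms at either age. miR-29b-3p also rose, with 649 RPM (OIR) and 539.9 RPM (CTL) at P14, against 131 RPM (OIR) and 196 RPM (CTL) at P7. Its edgeR log2 change was 1.94 (SE 0.25), adjusted p = 0.0457. miR-29a-3p had 2165 RPM (OIR) and 2112 RPM (CTL) at P14, against 457 RPM (OIR) and 901 RPM (CTL) at P7. Its ratio was 4.74 in OIR and 2.34 in CTL, with the P7 CTL pool above the P7 OIR pool in level, and it did not pass the edgeR test (adjusted p = 0.0707).

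Summed over its 3 members, the miR-29 seed stood at 16499 RPM (OIR) and 14714 RPM (CTL) at P14, against 5607 RPM (OIR) and 4497 RPM (CTL) at P7. The ratio of the sum was 2.94 in OIR (2.91 to 2.97) and 3.27 in CTL (3.24 to 3.30). The sum does not depend on how reads were divided among the near copies, and it moved by a similar factor in both arms. At P17 it was higher again, at 28723 RPM (OIR) and 25574 RPM (CTL). The entries on the opposite strand rose as well. miR-3556b had 415 RPM (OIR) and 358 RPM (CTL) at P14, against 130.2 RPM (OIR) and 114 RPM (CTL) at P7 (adjusted p = 0.0407). miR-3587 had 119 RPM (OIR) and 112 RPM (CTL) at P14, against 27.2 RPM (OIR) and 28.0 RPM (CTL) at P7 (adjusted p = 0.0407). Both carry seeds other than that of miR-29, as the capitals show, and each counts as a miRNA of its own among those called alike. Whether the counting tool kept the strands apart is not given in the sources used here. Whether their rise is separate from that of miR-29 was not tested.

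miR-211-5p and miR-204-5p share their seed and are known from the retinal pigment epithelium and the neural retina. The Mir211 hairpin lies inside Trpm1 (chr1:127189328-127189433, plus strand, GRCr8), the gene of a cation channel that ON bipolar cells use to respond to light. miR-211-5p rose, with 2386 RPM (OIR) and 3442 RPM (CTL) at P14, against 711 RPM (OIR) and 1146 RPM (CTL) at P7. Its ratio was 3.36 in OIR (3.27 to 3.45) and 3.00 in CTL (2.95 to 3.06), and its edgeR log2 change was 1.73 (SE 0.16), adjusted p = 0.0407. In both ages the CTL pool was above the OIR pool, and yet both P14 pools were above both P7 pools. The other strand of the same hairpin, miR-211-3p, also rose at a far lower level, with 18.7 RPM (OIR) and 18.3 RPM (CTL) at P14, against 6.65 RPM (OIR) and 7.46 RPM (CTL) at P7. miR-204-5p, the more abundant partner by seed, differed less, with 7999 RPM (OIR) and 9891 RPM (CTL) at P14, against 6325 RPM (OIR) and 10022 RPM (CTL) at P7. It was not called, and its CTL ratio just below 1 turned to just above 1 when scaled to total reads, by TMM or without the photoreceptor cluster. The 2 together had 10386 RPM (OIR) and 13332 RPM (CTL) at P14, against 7035 RPM (OIR) and 11168 RPM (CTL) at P7, of which miR-211-5p held a larger part at P14.

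Among the 13 entries of the neuronal list, 1 was called higher in both arms, beside 5.94% of all miRNAs tested. This was miR-129-5p, which is known as a brain-enriched miRNA. It rose, with 908 RPM (OIR) and 1258 RPM (CTL) at P14, against 309 RPM (OIR) and 289.7 RPM (CTL) at P7. Its ratio was 2.94 in OIR (2.82 to 3.07) and 4.34 in CTL (4.18 to 4.51), and its edgeR log2 change was 1.90 (SE 0.22), adjusted p = 0.0407. The 2 P7 pools were close to each other and both P14 pools were well above them. Its hairpin partner miR-129-3p rose too, with 54.6 RPM (OIR) and 40.9 RPM (CTL) at P14, against 15.4 RPM (OIR) and 14.03 RPM (CTL) at P7. The median log2 ratio of the neuronal list was 0.08 in OIR and 0.25 in CTL, beside -0.01 and -0.29 over all 595 miRNAs with at least 20 UMIs. The sum of the list was lower at P14 in both arms. It was 189087 RPM (OIR) and 186323 RPM (CTL) at P14, against 237148 RPM (OIR) and 207248 RPM (CTL) at P7. miR-9a-5p, the most abundant neuronal miRNA, had 161496 RPM (OIR) and 154231 RPM (CTL) at P14, against 203618 RPM (OIR) and 178289 RPM (CTL) at P7. Its ratio was 0.793 in OIR and 0.865 in CTL, short of 1.5-fold, and above 1 in CTL once the photoreceptor cluster was left out of the denominator. The partner strand miR-9a-3p had 8908 RPM (OIR) and 11368 RPM (CTL) at P14, against 16492 RPM (OIR) and 13785.5 RPM (CTL) at P7. Its ratio was 0.540 in OIR, past 1.5-fold, and 0.825 in CTL, short of it. miR-124-3p, a miRNA of differentiated neurons, differed in direction between the arms, with 3218 RPM (OIR) and 5500.4 RPM (CTL) at P14, against 4307 RPM (OIR) and 3115 RPM (CTL) at P7. The partner strand miR-124-5p was lower at P14 in both arms, with log2 ratios of -0.86 in OIR and -0.43 in CTL, and was not called.

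miR-7b and miR-7a-5p, known from neurons and endocrine cells, share a seed. miR-7b rose, with 237 RPM (OIR) and 240.1 RPM (CTL) at P14, against 87.7 RPM (OIR) and 94.1 RPM (CTL) at P7 (adjusted p = 0.0407). miR-7a-5p, which is far more abundant, had 6181 RPM (OIR) and 5268 RPM (CTL) at P14, against 4901 RPM (OIR) and 4666 RPM (CTL) at P7. The 2 differ at a single base and only the rarer one was called. Their sum was 6418 RPM (OIR) and 5508 RPM (CTL) at P14, against 4989 RPM (OIR) and 4759.9 RPM (CTL) at P7, a ratio of 1.29 in OIR (1.27 to 1.303) and 1.16 in CTL (1.14 to 1.17), short of 1.5-fold in both arms. miR-132-3p, a miRNA known to be induced by neuronal activity, rose at a level below 100 RPM, with 80.8 RPM (OIR) and 53.9 RPM (CTL) at P14, against 18.8 RPM (OIR) and 20.5 RPM (CTL) at P7 (adjusted p = 0.0407). Of the other 4 entries of the activity-linked list none was called, and the median of the list was 0.52 in OIR and -0.18 in CTL. These medians rest largely on entries near the listing minimum. Mean levels over the 4 pools were 6.02 RPM for miR-132-5p, 1.73 RPM for miR-212-3p and 2.22 RPM for miR-212-5p. miR-378a-3p, known in mouse from an intron of Ppargc1b and from energy metabolism, rose with 986 RPM (OIR) and 899.8 RPM (CTL) at P14, against 433 RPM (OIR) and 441 RPM (CTL) at P7. miR-187-3p also rose, with 139 RPM (OIR) and 166 RPM (CTL) at P14, against 50.8 RPM (OIR) and 73.2 RPM (CTL) at P7.

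The other miRNAs that rose in the edgeR test, miR-3557-5p and miR-664-3p, were below 100 RPM in every pool, and those called alike without passing the test were miR-182, miR-29a-3p, miR-1839-5p and miR-3068-5p. RefSeq places the hairpins of miR-1839-5p and miR-3068-5p at the genes Scarna15 and Snora58, which belong to classes of small nuclear and nucleolar RNA. The higher miRNAs had 8 hairpin partners that were listed in all 4 pools, had at least 20 UMIs in one of them and were not called themselves. All 8 were above 1 in both arms, beside 44 of the 219 miRNAs tested, a set with the higher floor of 100 RPM. Each partner shares its hairpin with a called miRNA, so the 8 are not separate observations.

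The photoreceptor cluster, 1 precursor region with the hairpins Mir183, Mir96 and Mir182 on chr4 (GRCr8), supplied the most abundant miRNA of the P14 pools. In the mouse retina its levels are known to follow light. miR-182 was higher at P14 in both arms, with 273795 RPM (OIR) and 207468 RPM (CTL) at P14, against 181113 RPM (OIR) and 129825 RPM (CTL) at P7. Its ratio was 1.51 in OIR (1.51 to 1.51) and 1.60 in CTL (1.59 to 1.60), just past 1.5-fold, and it did not pass the edgeR test (adjusted p = 0.0635). At P7 it ranked below miR-9a-5p in both arms and at P14 above it in both arms. The other members of the cluster did not share this pattern. miR-183-5p had 71556 RPM (OIR) and 88464 RPM (CTL) at P14, against 75090 RPM (OIR) and 53713 RPM (CTL) at P7. Its ratio was 0.953 in OIR (0.9496 to 0.956) and 1.65 in CTL (1.64 to 1.65), so that the change was seen in CTL, where the P7 pool holds the miRNAs of other tissues, and the OIR ratio crossed to above 1 when scaled to total reads or without the cluster itself in the denominator. miR-96-5p had 28843 RPM (OIR) and 48766 RPM (CTL) at P14, against 42767 RPM (OIR) and 34389 RPM (CTL) at P7, so it was lower at P14 in OIR and higher in CTL. The low-level partner strands miR-183-3p and miR-96-3p were not called, at 0.828 in OIR and 0.986 in CTL for miR-183-3p and 0.915 in OIR and 0.697 in CTL for miR-96-3p. Under other scalings the sign turned only in CTL for miR-183-3p and only in OIR for miR-96-3p. The 5 entries summed to 374469 RPM (OIR) and 344953 RPM (CTL) at P14, against 299298 RPM (OIR) and 218198 RPM (CTL) at P7.

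**Figure D3:**
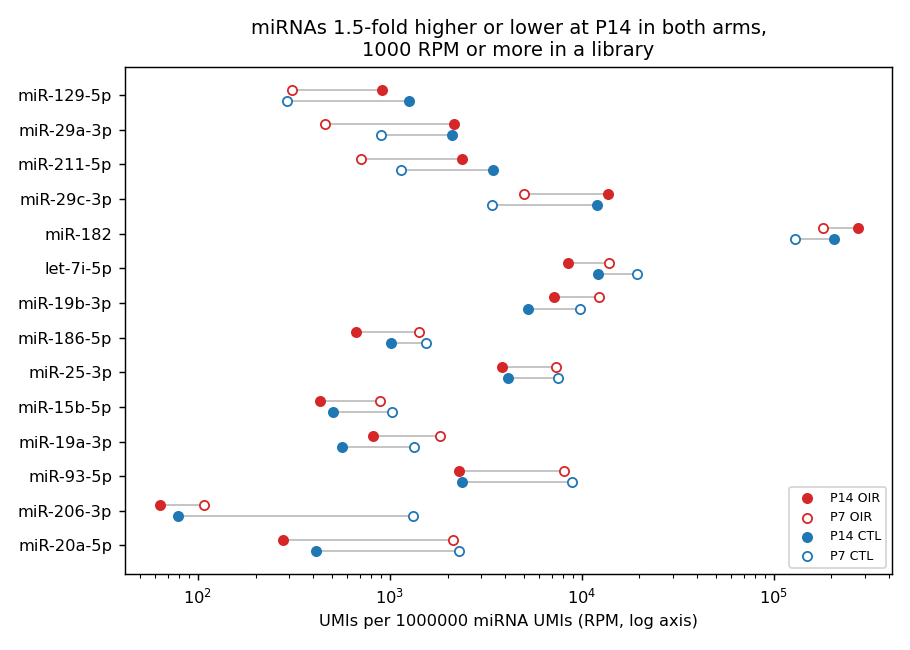
RPM (log axis) of the 14 miRNAs called alike at 1000 RPM or more, 5 higher and 9 lower at P14. Filled points are P14 and open points P7, red OIR above blue CTL, and grey lines join the 2 ages of an arm. miR-206-3p, a muscle miRNA, is the row whose arms differ most, with 1319 RPM in the P7 CTL pool and 108 RPM in the P7 OIR pool.

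The most uniform decrease was in the miR-17 clusters, 3 related groups of hairpins known as targets of Myc and E2F in dividing cells. Mir17, Mir18a, Mir19a, Mir20a, Mir19b1 and Mir92a1 lie in that order within chr15:98587848-98588632 (plus strand, GRCr8), and Mir93 and Mir25 lie inside Mcm7, the gene of a subunit of the replicative helicase, on chr12. Of the 11 entries of the list, 9 were at 100 RPM or more and all 9 were lower at P14 in both arms, beside 13.7% of all miRNAs tested. The median log2 ratio of the list was -1.15 in OIR and -1.20 in CTL. The remaining 2, both below 100 RPM, were miR-363-3p (0.502 in OIR and 0.772 in CTL) and miR-20b-5p (1.16 in OIR and 1.32 in CTL), both of the X-linked copy of the cluster. miR-20b-5p was the only entry of the list above 1 in both arms.

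miR-20a-5p fell the most among them, with 279 RPM (OIR) and 412 RPM (CTL) at P14, against 2139.9 RPM (OIR) and 2306 RPM (CTL) at P7. Its ratio was 0.1304 in OIR (0.124 to 0.137) and 0.179 in CTL (0.173 to 0.184), and its edgeR log2 change was -2.63 (SE 0.25), adjusted p = 0.0407. The 2 P7 pools were close to each other and both P14 pools were far below them. miR-93-5p, from the cluster in Mcm7, fell with 2307 RPM (OIR) and 2378 RPM (CTL) at P14, against 8041 RPM (OIR) and 8895 RPM (CTL) at P7. Its ratio was 0.287 in OIR (0.282 to 0.292) and 0.267 in CTL (0.264 to 0.271), and its edgeR log2 change was -1.79 (SE 0.16), adjusted p = 0.0407. The arms were close to each other at both ages for this miRNA. miR-17-5p fell, with 134 RPM (OIR) and 77.6 RPM (CTL) at P14, against 449.9 RPM (OIR) and 329.8 RPM (CTL) at P7 (adjusted p = 0.0407). miR-106b-5p was lower in both arms without passing the edgeR test, with 154 RPM (OIR) and 95.8 RPM (CTL) at P14, against 426 RPM (OIR) and 221 RPM (CTL) at P7 (adjusted p = 0.0635).

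These 4 carry the capitals AAAGUGC. With the fifth listed member, miR-20b-5p, which was above 1 in both arms at 1.16 in OIR and 1.32 in CTL, the seed summed to 2954 RPM (OIR) and 3059.9 RPM (CTL) at P14, against 11127 RPM (OIR) and 11824 RPM (CTL) at P7. The ratio of the sum was 0.266 in OIR (0.262 to 0.269) and 0.259 in CTL (0.256 to 0.262). It had 2729 RPM (OIR) and 2369 RPM (CTL) at P17, little below P14. miR-18a-5p, whose seed differs from this one by a single base, fell with 36.3 RPM (OIR) and 42.6 RPM (CTL) at P14, against 148 RPM (OIR) and 123 RPM (CTL) at P7 (adjusted p = 0.0407). All 4 members of the seed at 100 RPM or more were lower in both arms, and the sum over these near copies was lower too.

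Among the 25 seeds with 2 or more members at 100 RPM or more, the miR-19 seed was the other of which every such member was lower in both arms. miR-19a-3p fell, with 819.7 RPM (OIR) and 561 RPM (CTL) at P14, against 1823 RPM (OIR) and 1344 RPM (CTL) at P7 (adjusted p = 0.0457). miR-19b-3p had 7152 RPM (OIR) and 5269.6 RPM (CTL) at P14, against 12309 RPM (OIR) and 9784 RPM (CTL) at P7 (adjusted p = 0.0635). The sum of both was 0.564 in OIR and 0.524 in CTL relative to P7, a smaller decrease than that of the AAAGUGC seed. miR-25-3p and miR-92a-3p share a seed as well. miR-25-3p had 3851 RPM (OIR) and 4145 RPM (CTL) at P14, against 7378 RPM (OIR) and 7531 RPM (CTL) at P7, a ratio of 0.522 in OIR and 0.550 in CTL. miR-92a-3p had 462 RPM (OIR) and 470.1 RPM (CTL) at P14, against 808 RPM (OIR) and 871 RPM (CTL) at P7, a ratio of 0.571 in OIR and 0.540 in CTL. Neither passed the edgeR test. Their seed, with 5 listed members, had a ratio of 0.534 in OIR (0.527 to 0.540) and 0.558 in CTL (0.552 to 0.564). Of its 3 members at 100 RPM or more, only these 2 were called lower in both arms. miR-92b-3p and miR-32-5p, which have the same seed, had edgeR log2 changes of -0.02 and -0.27 and did not pass either.

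**Figure D4:**
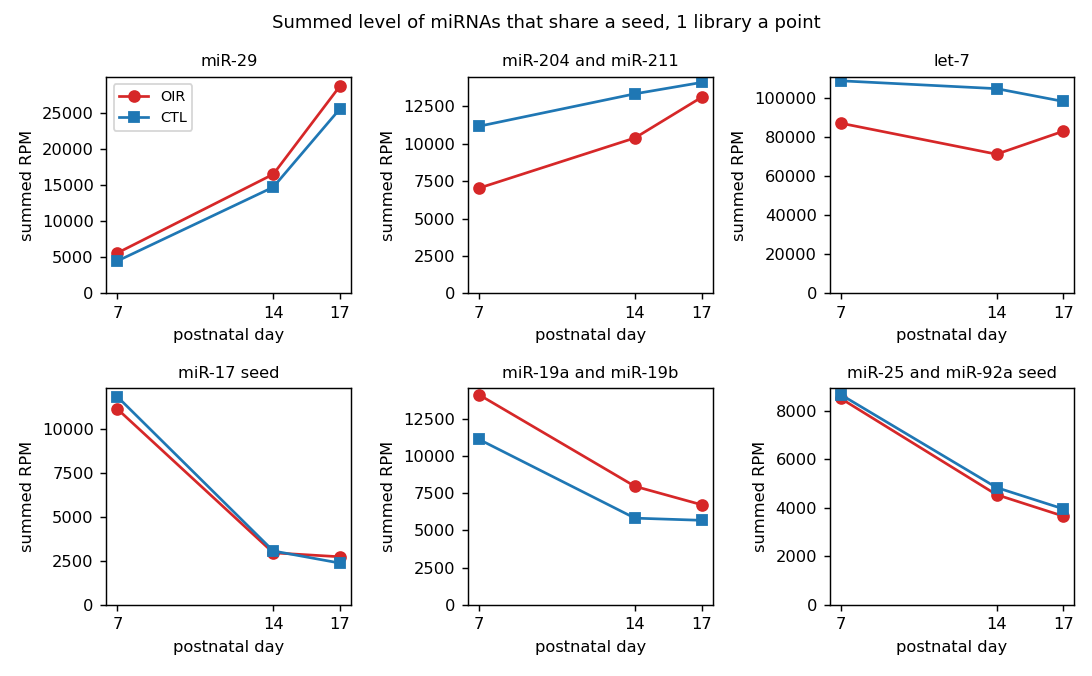
Summed RPM of 6 groups of miRNAs with the same seed at P7, P14 and P17, with 1 library a point, red circles OIR and blue squares CTL, all axes from 0. The miR-29 sum climbs at each age to 28723 RPM (OIR) and 25574 RPM (CTL) at P17, the miR-17 sum drops between P7 and P14 and is near level after, and the let-7 sum has no common course in the 2 arms.

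The miR-15 and miR-16 seed, known to restrain the cell cycle, was lower in sum, at 46897 RPM (OIR) and 48427 RPM (CTL) at P14, against 67968 RPM (OIR) and 71797 RPM (CTL) at P7. Its ratio was 0.690 in OIR (0.687 to 0.693) and 0.674 in CTL (0.672 to 0.677), nearly the same in both arms and within 1.5-fold. miR-16-5p made up most of it, with 45721 RPM (OIR) and 47377 RPM (CTL) at P14, against 66463 RPM (OIR) and 69421 RPM (CTL) at P7. miR-15b-5p alone was called, with 431 RPM (OIR) and 504 RPM (CTL) at P14, against 889 RPM (OIR) and 1022 RPM (CTL) at P7 (adjusted p = 0.0616). Its hairpin partner miR-15b-3p was called lower too, at 0.507 in OIR and 0.410 in CTL. Of a further seed, miR-130b-3p (0.545 in OIR and 0.461 in CTL) and miR-301b-3p (0.609 in OIR and 0.587 in CTL), whose hairpins are neighbours on chr11, were both lower. miR-130a-3p, which has the same seed and was also at 100 RPM or more, was not called. The sum of the 3 had a ratio of 0.693 in OIR, short of 1.5-fold, and 0.496 in CTL.

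The let-7 family, which times developmental transitions in many animals and marks late retinal progenitors and their progeny in mouse, showed no common increase. All 9 members were at 100 RPM or more. let-7i-5p was the only one called, lower at P14, with 8435 RPM (OIR) and 12197 RPM (CTL) at P14, against 13822 RPM (OIR) and 19302 RPM (CTL) at P7. Its ratio was 0.610 in OIR (0.604 to 0.616) and 0.632 in CTL (0.628 to 0.636) (adjusted p = 0.145). The most abundant member, let-7f-5p, had 36168 RPM (OIR) and 45604 RPM (CTL) at P14, against 38420 RPM (OIR) and 41482 RPM (CTL) at P7, which is close to level in both arms. In OIR all 9 ratios were below 1 and in CTL 6 of 9 were. miR-98-5p, which has the same seed, had 0.456 in OIR and 0.813 in CTL. For let-7a-5p the ratios were 0.683 in OIR and 0.985 in CTL, for let-7b-5p 0.771 in OIR and 1.00 in CTL, for let-7c-5p 0.944 in OIR and 0.998 in CTL and for let-7d-5p 0.755 in OIR and 0.902 in CTL. let-7e-5p had 0.702 in OIR and 0.843 in CTL, and let-7g-5p 0.823 in OIR and 1.02 in CTL. The sign turned under at least 1 alternative setting for let-7a-5p to let-7e-5p and for let-7g-5p in CTL, and for let-7c-5p and let-7f-5p in OIR. The family summed to 71175 RPM (OIR) and 104680 RPM (CTL) at P14, against 87028 RPM (OIR) and 108688 RPM (CTL) at P7.

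The Dlk1-Dio3 cluster, a large imprinted miRNA region active in the nervous system, had 4 of its 17 entries at 100 RPM or more called lower in both arms and none higher, beside 13.7% of all miRNAs tested. They were miR-381-3p, miR-431, miR-376c-3p and miR-541-5p. miR-381-3p had 51.9 RPM (OIR) and 129 RPM (CTL) at P14, against 195 RPM (OIR) and 423 RPM (CTL) at P7, a ratio of 0.266 in OIR and 0.305 in CTL. miR-431, whose hairpin lies inside the bounds of the imprinted gene Rtl1, had 94.1 RPM (OIR) and 165 RPM (CTL) at P14, against 207 RPM (OIR) and 323 RPM (CTL) at P7. None of the 4 passed the edgeR test. The 3 most abundant entries were level or differed between arms, at 0.896 in OIR and 1.08 in CTL for miR-382-5p, 0.723 in OIR and 1.00 in CTL for miR-136-3p and 1.25 in OIR and 0.705 in CTL for miR-379-5p, of which the first reverses in OIR without the photoreceptor cluster and the second in CTL with reads in place of UMIs. The median log2 ratio over the 26 entries was -0.19 in OIR and -0.34 in CTL.

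In the lists of the miR-30 family, of the miR-181 family and of miR-125 and miR-99/100, no entry was called alike. The miR-30 family, with 5 entries at 100 RPM or more, had a median log2 ratio of 0.34 in OIR and 0.20 in CTL. miR-30e-5p, its most abundant member, had 16111 RPM (OIR) and 17578 RPM (CTL) at P14, against 18610.5 RPM (OIR) and 16832 RPM (CTL) at P7. miR-30a-5p had a ratio of 1.02 in OIR and 1.15 in CTL and miR-30d-5p one of 1.26 in OIR and 1.35 in CTL. The miR-181 family (4 entries), known from neurons and lymphocytes, had a median of -0.36 in OIR and -0.14 in CTL. Within it the ratios were 0.838 in OIR and 1.06 in CTL for miR-181a-5p, 0.946 in OIR and 1.47 in CTL for miR-181b-5p and 0.725 in OIR and 0.775 in CTL for miR-181c-5p, of which that of miR-181b-5p in OIR turns above 1 without the photoreceptor cluster. The list holds 5p strands only. Outside it, miR-181c-3p (log2 ratio -1.25 in OIR and -0.93 in CTL) and miR-181b-1-3p (-0.66 in OIR and -0.91 in CTL) were called lower in both arms. miR-181a-2-3p (-0.65 in OIR and -0.21 in CTL) was not called. The miR-125 and miR-99/100 list (5 entries), known as companions of let-7 in the genome, had a median of 0.32 in OIR and -0.28 in CTL. Its most abundant member, miR-125b-5p, had 15702 RPM (OIR) and 20212 RPM (CTL) at P14, against 12583 RPM (OIR) and 26327 RPM (CTL) at P7, so that the highest of the 4 values is in the P7 CTL pool. miR-125a-5p had a ratio of 0.868 in OIR and 0.835 in CTL and miR-99b-5p one of 0.987 in OIR and 0.824 in CTL, with the OIR value of the second above 1 under several other scalings. The pigment epithelium list, of which 2 of 4 entries were at 100 RPM or more and miR-211-5p was called higher, had a median of 0.92 in OIR and 0.64 in CTL.

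**Figure D5:**
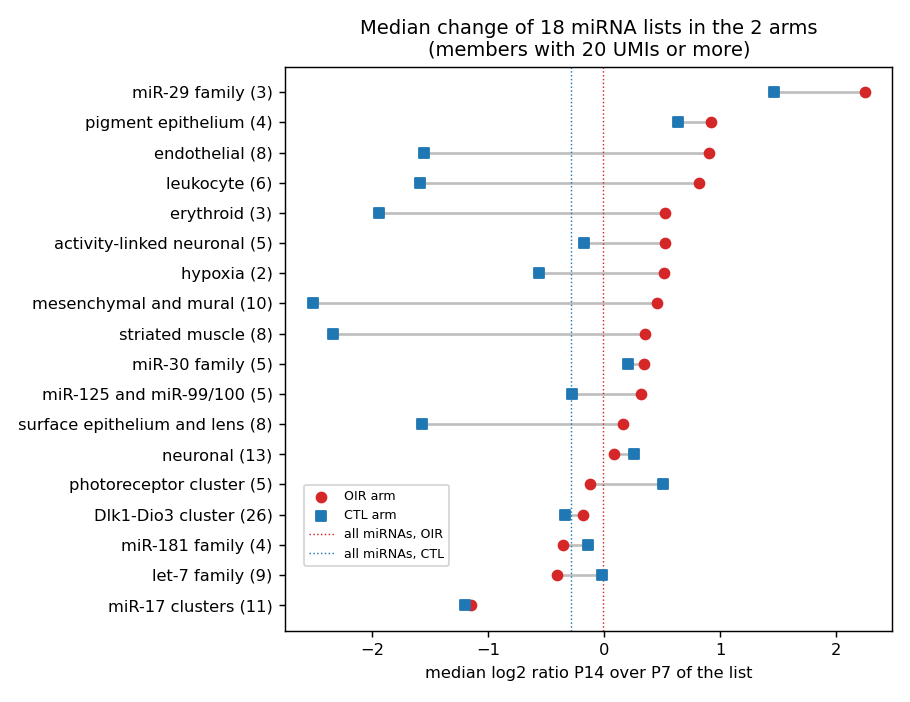
Median log2 ratio of P14 over P7 of 18 miRNA lists, red circles OIR and blue squares CTL, with the number of entries that had 20 UMIs or more in parentheses. Dotted lines are the medians over all 595 such miRNAs, -0.01 in OIR and -0.29 in CTL. The miR-29 family lies to the right and the miR-17 clusters to the left in both arms, and the lists of other tissues have CTL medians between -1.56 and -2.51 with OIR medians between 0.16 and 0.91.

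The lists of other tissues separated the arms. The endothelial list had a median log2 ratio of 0.91 in OIR and -1.56 in CTL. miR-126a-3p, the main endothelial miRNA, had 7897 RPM (OIR) and 9346 RPM (CTL) at P14, against 3889 RPM (OIR) and 24812 RPM (CTL) at P7. In OIR it was higher at P14, and in CTL the P7 pool held the highest value of all 4. Its partner strand miR-126a-5p had 3397 RPM (OIR) and 3000.4 RPM (CTL) at P14, against 1777 RPM (OIR) and 10086 RPM (CTL) at P7. miR-24-3p, which is also common outside endothelium, had a ratio of 1.41 in OIR and 0.446 in CTL. The mesenchymal and mural list had a median of 0.45 in OIR and -2.51 in CTL. miR-199a-3p, its most abundant entry, had 426 RPM (OIR) and 469.7 RPM (CTL) at P14, against 382 RPM (OIR) and 15510.3 RPM (CTL) at P7, so that 3 of the pools lay near each other and the P7 CTL pool far above them. miR-143-3p, known from smooth muscle, had 1396 RPM (OIR) and 2782 RPM (CTL) at P14, against 1632 RPM (OIR) and 10636 RPM (CTL) at P7. For miR-152-3p the ratio was 0.993 in OIR and 0.167 in CTL, with the OIR value near 1 and turning with the scaling. In the blood and epithelial lists the same split was seen. The leukocyte list had a median of 0.81 in OIR and -1.59 in CTL, the erythroid list of 0.52 in OIR and -1.94 in CTL and the list of surface epithelium and lens of 0.16 in OIR and -1.58 in CTL. miR-142-3p, a miRNA of blood cells, had 738 RPM (OIR) and 389.8 RPM (CTL) at P14, against 630.3 RPM (OIR) and 1138 RPM (CTL) at P7. miR-184, a miRNA of cornea and lens, had 921 RPM (OIR) and 1567 RPM (CTL) at P14, against 521 RPM (OIR) and 1299 RPM (CTL) at P7, and it alone among the entries named here was above 1 in CTL as well. In the OIR pools, miR-214-5p of the mesenchymal list was not listed at either age and miR-126b was not listed at P14. The hypoxia list, miR-210 with its 2 strands, had a median of 0.51 in OIR and -0.57 in CTL. The log2 ratios were 0.20 in OIR and -0.67 in CTL for miR-210-3p, and 0.82 in OIR and -0.47 in CTL for miR-210-5p. The second strand had a mean of only 5.57 RPM over the 4 pools. miR-210-3p, a target of hypoxia-inducible factor, had 1319 RPM (OIR) and 643 RPM (CTL) at P14, against 1146 RPM (OIR) and 1023 RPM (CTL) at P7.

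The striated muscle list is the one list of other tissues with calls in both arms. Its median log2 ratio was 0.35 in OIR and -2.34 in CTL, and 3 of its 5 entries at 100 RPM or more were lower in both arms, beside 13.7% of all miRNAs tested. miR-206-3p, a miRNA of skeletal muscle, had 63.2 RPM (OIR) and 78.8 RPM (CTL) at P14, against 108 RPM (OIR) and 1319 RPM (CTL) at P7. miR-1-3p had 27.5 RPM (OIR) and 15.7 RPM (CTL) at P14, against 59.3 RPM (OIR) and 503 RPM (CTL) at P7. The shared entry of miR-133a-3p and miR-133b-3p had 10.2 RPM (OIR) and 16.4 RPM (CTL) at P14, against 27.6 RPM (OIR) and 309 RPM (CTL) at P7. Their ratios were 0.585 in OIR and 0.0597 in CTL for miR-206-3p, 0.463 in OIR and 0.0311 in CTL for miR-1-3p and 0.367 in OIR and 0.0530 in CTL for the shared entry, so the CTL decrease was far larger for each, and none passed the edgeR test. miR-1b, which differs from miR-1-3p by 1 base, went the other way in OIR, with 284 RPM (OIR) and 167 RPM (CTL) at P14, against 209.8 RPM (OIR) and 1806 RPM (CTL) at P7. Summed over miR-1-3p, miR-1b and miR-206-3p, which share a seed, the ratio was 0.993 in OIR (0.945 to 1.04) and 0.0721 in CTL (0.0695 to 0.0747), so the sum was not lower in both arms. Without the miRNAs of these 6 lists, those called alike were 13 higher and 27 lower.

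Of the 30 miRNAs lower in both arms, those not yet described were miR-186-5p, miR-216a-5p, miR-325-3p, miR-374-3p and miR-494-3p, and the partner strands miR-106b-3p and miR-17-1-3p. miR-186-5p, whose hairpin lies inside Zranb2, had 665 RPM (OIR) and 1009 RPM (CTL) at P14, against 1424 RPM (OIR) and 1540.4 RPM (CTL) at P7. miR-494-3p belongs to the imprinted region on chr6 as well, though it was not in the list, and had 34.03 RPM (OIR) and 34.2 RPM (CTL) at P14, against 90.4 RPM (OIR) and 142 RPM (CTL) at P7. The lower miRNAs had 16 hairpin partners that were listed in all 4 pools, had at least 20 UMIs in one of them and were not called themselves. Of these, 13 were below 1 in both arms, and the exceptions were miR-186-3p, miR-25-5p and miR-494-5p. Beside them, 102 of the 219 miRNAs tested, a set with the higher floor of 100 RPM, were below 1 in both arms. These partners too share their hairpins with called miRNAs. The 4 miRNAs below 100 RPM that fell in the edgeR test were miR-449a-5p, miR-493-3p, miR-93-3p and miR-1193-3p. miR-449a-5p, of a family known from ciliated cells, had 17.2 RPM (OIR) and 23.8 RPM (CTL) at P14, against 53.1 RPM (OIR) and 63.6 RPM (CTL) at P7.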

How the data were processed

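Small RNA was sequenced in pooled retinas. The deposited values are counts, not normalized: for each miRNA with at least 10 UMIs in a library, the authors list its reads and UMIs. Per the labels, the authors used the QIAseq miRNA kit, which attaches UMIs (their methods name TruSeq Small RNA), base calling with bcl2fastq 2.20, trimming with cutadapt and alignment with Bowtie to Rnor_6.0. Parameters and the counting tool are not given in the sources used here. Total reads were 11081697 to 17903533 in the 4 libraries, miRNA UMIs came to 59.7% to 68.1% of them, and 10 UMIs corresponded to 0.820 to 1.43 RPM.

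An unlisted miRNA was entered as 10 UMIs in ratios and as 0 in edgeR. Groups were taken from the sample titles and tags, and no sequencing batch is given in them. edgeR 4.0.16 in R 4.3.3 was run on miRNAs with at least 10 UMIs in 0.5 of 6 libraries, and was tested on simulated counts. DESeq2 1.42.0, other scalings, floors, folds and left-out libraries were alternatives. Python 3.11.15 and scipy 1.17.1 gave the rest.

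The miRNAs, 18 lists and tests were chosen with earlier results of these data known. In the lists (137 names), miR-129-1-3p is not listed in these libraries, and a single entry stands for miR-133a-3p with miR-133b-3p. Named miRNAs are those called alike at 1000 RPM or more (at most 12 in each direction), the 5 most abundant of each library, all photoreceptor cluster and let-7 members and the 3 most abundant of every other list, the 6 opposite movers at 1000 RPM with the largest smaller absolute log2 ratio of the 2 arms, and those sharing a printed seed. Other names were added after their values were seen.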

Additional observations from a re-analysis of the deposited data

Results flagged for a closer look

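At 1000 RPM or more, 27 miRNAs had P14 to P7 ratios on opposite sides of 1 in the 2 arms with both intervals excluding 1, 15 of them higher at P14 in OIR and lower in CTL and 12 the reverse. For the 6 of them whose smaller absolute log2 ratio of the 2 arms was largest, the log2 ratio in OIR minus that in CTL is given. This difference was 3.87 for miR-1b, 2.68 for miR-126a-5p, 2.43 for miR-126a-3p and 1.66 for miR-24-3p, which were higher at P14 in OIR and lower in CTL. It was -1.24 for miR-124-3p and -1.07 for miR-96-5p, which were lower at P14 in OIR and higher in CTL. All members of the leukocyte list were above 1 in OIR and below 1 in CTL, with a difference of list medians of 2.40. In the endothelial list, the 7 entries listed in both OIR pools were above 1 in OIR, while miR-126b was not listed in the P14 OIR pool, and 7 of 8 were below 1 in CTL, with a difference of medians of 2.46. With 1 library per group, none of these differences between the arms was tested. The P7 CTL pool, with the highest summed level of each list of other tissues, is the denominator of every CTL ratio, and its part in the differences was not tested.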

How the results depend on the processing

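The counts of miRNAs alike in both arms (13 higher, 30 lower) stayed within 1.5 times under reads in place of UMIs, all RNA classes, total reads, TMM, leaving out the photoreceptor cluster from the denominator, the whole interval past 1.5-fold and leaving out the lists of other tissues. All 13 higher calls were shared under every scaling except reads (12), and the lower calls shared were 21 without the photoreceptor cluster, 25 with TMM and 27 with total reads. With a floor of 1000 RPM the counts were 5 higher and 9 lower, and with no floor 32 and 64. With ratios of 1.2 and 0.8 they were 25 and 54, and with 2-fold 10 and 11. In the OIR arm alone, an alternative added after seeing the data that does not use the P7 CTL pool, they were 32 and 51. Some scalings moved the median log2 ratio by over 0.1, TMM by 0.10 in CTL and leaving out the photoreceptor cluster by 0.16 in OIR and 0.26 in CTL. For edgeR (14 higher, 9 lower), DESeq2 gave 28 and 26, and edgeR on the 4 P7 and P14 libraries gave 0 and 0, with 95 of 647 at an unadjusted p below 0.05. Leaving out 1 library at a time gave 0 to 58 higher and 0 to 61 lower, and the lone remaining library of that age was then assumed to vary like the others. No analysis paired by animal was possible, because each group is 1 pool and the pups were killed at each age. Depth limits the P14 OIR pool most, which listed 574 miRNAs.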

Other observations

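Outside the calls in both arms, a few miRNAs, picked after their values were seen, differed by 1.5-fold or more between ages in the OIR or the CTL arm alone, and the difference between the arms was not tested. miR-135a-5p stood at 887 RPM (P14) and 2938 RPM (P7) in OIR, and at 1999 RPM (P14) and 2446 RPM (P7) in CTL. miR-190b-5p had 1914 RPM (P14) and 2190 RPM (P7) in OIR, against 5240 RPM (P14) and 1873 RPM (P7) in CTL. miR-21-5p, often high in reactive tissue, had 11458 RPM (P14) and 5111 RPM (P7) in OIR, and 6222 RPM (P14) and 6872 RPM (P7) in CTL. miR-6328 differed between the arms at both ages, with 11.7 RPM (P14) and 60.2 RPM (P7) in OIR, against 548 RPM (P14) and 366 RPM (P7) in CTL.

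The ratio of an opposite-strand entry to its miR-29 partner can be read from the levels. miR-3556b was at 415 RPM where miR-29c-3p was at 13685 RPM in the P14 OIR pool, and at 130 RPM where miR-29c-3p was at 5019 RPM in the P7 OIR pool. In OIR the log2 ratio of P14 over P7 was larger for miR-3556b (1.67) than for miR-29c-3p (1.45). In CTL it was smaller for miR-3556b (1.65) than for miR-29c-3p (1.83), so the share had no common course in the arms. Both entries of the pair were higher at P14 in both arms, and whether the counting tool kept their strands apart is not given.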
